A study of Saccharomyces cerevisiae with 18 samples.

Results

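The acute loss of the bromodomain proteins Bdf1 and Bdf2 from budding yeast was followed in strain RDY73 by SLAM-seq, which marks RNA made during a short pulse of the uracil analogue 4-thiouracil (4tU). Alkylation with iodoacetamide makes an incorporated 4tU read as a T-to-C change in sequencing. The comparison took the 3 libraries RDY73_IAA A, B and C against the 3 libraries RDY73_DMSO A, B and C, 6 of the 18 libraries of the study, chosen by strain and treatment. The genotype of all 6 combines BDF1-3XV5-mAID-URA3 and BDF2-3XV5-mAID-kanMX with pGPD1-OsTIR1::HIS3. Both proteins therefore carry V5 epitopes and an auxin-inducible degron in both groups, and OsTIR1, a plant F-box protein driven by the promoter written pGPD1, is present in both. RDY73_IAA was kept for 25 min with the auxin 3-indoleacetic acid (IAA) at 1 mM in DMSO and then for 4 min with 5 mM 4tU, and RDY73_DMSO received DMSO in place of IAA and the same 4tU. Cultures were grown in YPD at 30 °C, each group was done in biological triplicate, and S. pombe cells labelled with 4tU were mixed in at a mass ratio of 1 to 19. The 3 RDY73 control libraries without IAA or 4tU gave expression levels, and the 3 RDY234_DMSO libraries, from a strain that also holds pBDF1-BDF1::TRP1, gave labelled shares, so that both measures came from libraries outside the comparison. Degradation of the proteins was not measured in these data, and a strain without degron tags was not analysed here.

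Bdf1 and Bdf2 belong to the BET family, whose paired bromodomains bind acetylated histone tails. Bdf1 associates with TFIID, the general transcription factor that brings the TATA-binding protein to promoters, and with the SWR1 complex, which deposits the histone variant H2A.Z. In this yeast most promoters lack a canonical TATA element and are classically described as TFIID-dominated housekeeping promoters, while promoters with a TATA element are common among stress-responsive and strongly regulated genes that also draw on the SAGA coactivator.

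Reads in S. cerevisiae gene windows numbered 4177363 to 6013359 per library over the 6 libraries, and reads in S. pombe windows 387855 to 682715. Reads carrying 2 or more T-to-C conversions, here called labelled, measured new RNA, and all reads measured total RNA. Labelled S. cerevisiae reads numbered 103348 to 224539 and labelled S. pombe reads 8710 to 15861. Every library was scaled to its S. pombe reads, labelled or total, so changes are per S. pombe read. On this scale fewer S. cerevisiae cells and less RNA per cell cannot be told apart. The labelled shares of S. cerevisiae reads given below do not use this scale. The labelled S. cerevisiae reads per labelled S. pombe read were 17.8, 21.0 and 17.5 with DMSO and 7.96, 9.23 and 9.48 with IAA. All 3 IAA libraries lay below all 3 DMSO libraries, at a ratio of means of 2.11 (exact permutation test, two-sided p = 0.1, the smallest that 3 against 3 allows). The same ratio for total reads was 10.5, 10.8 and 9.10 with DMSO and 7.78, 8.84 and 8.16 with IAA, a 1.23-fold lower mean without overlap of the groups (exact p = 0.1). The share of S. pombe reads that were labelled was 2.20% with DMSO and 2.27% with IAA, and the groups overlapped (exact p = 0.3). Labelled reads made up 0.202% ± 0.0171 (SD, n = 3) of S. cerevisiae reads in the unlabelled RDY73 control libraries, against 4.08% ± 0.313 with DMSO and 2.44% ± 0.156 with IAA. The background expected from those controls therefore made up 4.54% to 5.17% of labelled reads with DMSO and 7.65% to 8.63% with IAA. Net of the background in the controls, reads with at least 2 conversions were a fraction of 0.532 ± 0.00370 of those with at least 1 with DMSO and 0.50 ± 0.0138 with IAA, without overlap of the groups (SD, n = 3, exact p = 0.1). With the background subtracted from each gene 4314 genes were called lower and 18 higher in new RNA, and the log2 change of the summed labelled reads was −1.13 in place of −1.08. The part that the shift in conversions plays in the results was not tested.

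The degron-tagged genes come first. On build R64, BDF1 (YLR399C) lies on the minus strand of chromosome XII from 919536 to 921596. It had 107, 97.2 and 82.9 scaled labelled reads with DMSO and 57.2, 64.9 and 60.6 with IAA. The groups did not overlap, and the log2 change was −0.65 ± 0.19 (SE; edgeR quasi-likelihood test, Benjamini-Hochberg adjusted p = 0.00127). Total BDF1 RNA changed by −0.08 ± 0.12. BDF2 (YDL070W, plus strand of chromosome IV, 331024 to 332940) had 138, 144 and 146 scaled labelled reads with DMSO and 108, 116 and 108 with IAA. Its change of −0.36 ± 0.18 passed by little (adjusted p = 0.0496) and did not pass without any 1 of the 6 libraries (−0.40 to −0.34). These are RNA values, and the tags sit near the 3′ end that the libraries count, so they do not report on the proteins.

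The fall in new RNA reached most of the genome. Of 5195 genes tested for new RNA, 4359 fell (83.9%), 20 rose (0.385%) and 816 did not pass. The 20 became 13 without IAA C and 34 with a threshold of 1 conversion. The median log2 change was −1.97, a 3.91-fold fall, with a 10th percentile of −3.37 and a 90th percentile of −0.53, against a median standard error per gene of 0.479. Of 6100 genes tested for total RNA, 4752 fell (77.9%) and 71 rose (1.16%), around a median of −1.24, a 2.37-fold fall. A median over genes gives each gene the same weight, whereas the summed reads above weight genes by level. Under relative scaling, with the S. cerevisiae genes as their own reference, the median of all genes moved to −0.29 in new RNA and −0.10 in total RNA, and the calls split to 601 lower (11.6%) and 842 higher (16.2%) in new RNA, and to 1880 lower (30.8%) and 1803 higher (29.6%) in total RNA. Relative scaling takes a shared shift out by construction, so these counts do not show whether a general fall took place. The size of the fall per gene rests on the S. pombe reads. The labelled share of S. cerevisiae reads, which does not use them, was 4.08% with DMSO and 2.44% with IAA. Counts under relative scaling stand beside most gene groups below.

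To describe the ends of this distribution, a gene was counted as escaping when the lower 95% bound of its new RNA change lay above −1, less than a 2-fold fall, and as deeply fallen when the upper bound lay below −2, more than a 4-fold fall. Of the 5195 genes 387 escaped (7.45%) and 621 fell deeply (12%), both chosen by the new RNA change itself, so their changes are a description. The escaping genes had 5.04, 5.97 and 4.85 labelled reads per labelled S. pombe read with DMSO and 3.89, 4.58 and 4.63 with IAA. They held 28.3%, 28.4% and 27.8% of all labelled reads with DMSO and 48.9%, 49.6% and 48.9% with IAA. The deeply fallen genes went from 1.19, 1.38 and 1.23 to 0.115, 0.135 and 0.143 on the same scale. In total RNA the escaping genes stood at 2.93, 3.15 and 2.63 with DMSO and 2.73, 3.15 and 2.85 with IAA, and the groups overlapped. Where relative scaling sets the scale, 2163 genes meet the first bound and 50 the second. The median escaping gene changed by −0.17 in new and 0.02 in total RNA, and the median deeply fallen gene by −3.68 and −1.82. Of the deeply fallen genes 77 had no labelled read in any IAA library, and with such genes placed at a bound of 3 reads over the group the median was −3.43. At the edge of the escaping class, RDN25-2 changed by −0.63 just inside it and PST1 by −0.49 just outside it, and at the edge of the deep class PUF6 changed by −2.39 just outside it. A gene with few labelled reads has too wide an interval for either class. Without 1 library the escaping class held 312 to 418 genes and the deep class 507 to 728, and with the filter and the spread both taken from the 6 compared libraries alone, which left 3224 genes to test, the deep class held 293. With a threshold of 1 conversion, 824 genes escaped and 460 fell deeply. At that threshold 4.91% to 5.12% of S. cerevisiae reads counted as labelled in the unlabelled RDY73 controls. The values were 11.7% to 12.9% with DMSO and 9.12% to 9.67% with IAA, so background weighs more than at 2 conversions.

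**Figure D1:**
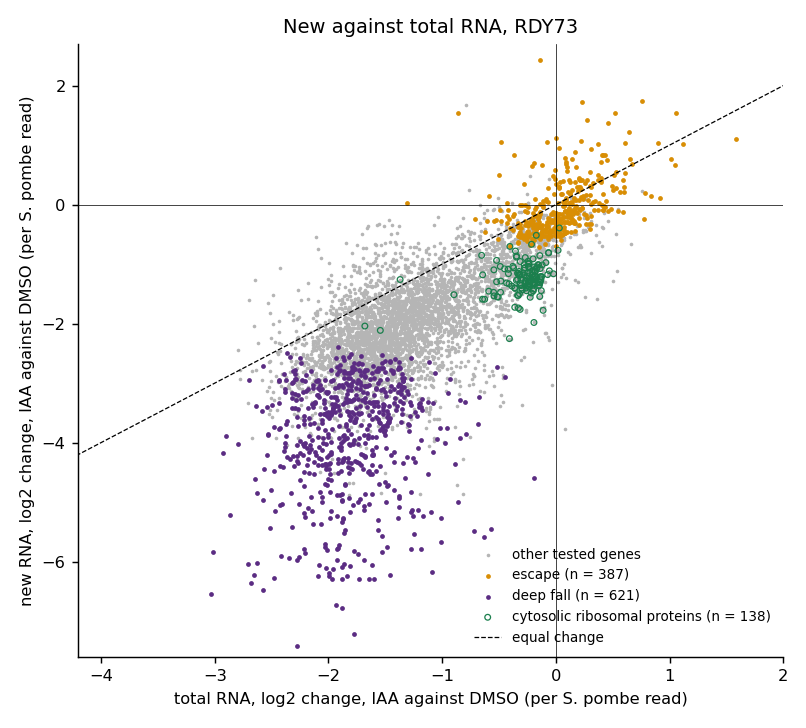
Each point is 1 of 5195 genes, with the log2 change of total RNA on the horizontal axis and of new RNA on the vertical axis, IAA against DMSO in RDY73, coloured by class. Most genes lie below the diagonal, where the new RNA fell further than the total, and the escaping genes gather around 0 on both axes.

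New RNA lay lower than total RNA in 4665 of the 5195 genes (89.8%), with a median difference of −0.67 on the log2 scale. Across genes the 2 changes had a Spearman correlation of 0.74, a description over genes that share the same libraries and whose labelled reads are part of their total reads. Of the 4359 genes that fell in new RNA, 4052 (93.0%) also fell in total RNA, 304 did not pass there and 3 rose. Of the 20 genes that rose in new RNA, 15 also rose in total RNA and 5 did not pass. The 307 genes that fell in new RNA without a called fall in total RNA included 72 of the 138 tested genes of cytosolic ribosomal proteins. These 307 had a median level of 285 CPM (reads scaled to a common library total) in the RDY73 controls and a median labelled share of 7.54% in RDY234_DMSO. The 4052 genes that fell in both included 65 of the 138, and had a median level of 32.2 CPM and a median labelled share of 16.0%. A direct test of labelled against unlabelled reads within libraries gave 1369 genes with a lower ratio (26.4%) and 10 with a higher ratio (0.192%), and a median change of −0.78. Without IAA B the first count was 896, and the second was 4 without DMSO C and 6 without IAA C. Under relative scaling these counts were 112 (2.16%) and 64 (1.23%).

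The genes that rose were few and included glycolytic enzymes. Among 483 well-covered genes, with a mean of at least 50 labelled reads, no overlapping window and at most 10% multimapped reads, 390 fell (80.7%) and 7 rose (1.45%), and 4 of the 7 rose without overlap of the libraries. NRD1 (YNL251C, chromosome XIV, 172588 to 174315, minus strand) encodes an RNA-binding protein that, with Nab3, ends transcription of short noncoding RNAs and limits its own messenger. Its scaled labelled reads were 31.0, 40.4 and 43.0 with DMSO and 68.2, 84.6 and 92.2 with IAA. Every IAA library lay above every DMSO library, for a log2 change of 1.11 ± 0.25 (SE, adjusted p = 3.05e-05), and total RNA rose by 1.58 ± 0.13 (adjusted p = 5.62e-14). Messenger of its partner NAB3 fell, from 238, 281 and 233 to 92.3, 74.7 and 64.9 scaled labelled reads, by −1.70 ± 0.18, a fall that relative scaling removed (0.016). HRP1, a cleavage factor subunit that also binds the 3′ ends of transcripts, rose by 1.05 ± 0.13 in total RNA, and its new RNA changed by 0.67 ± 0.29 (adjusted p = 0.0286), a call lost without DMSO A, DMSO C or IAA A (0.50 to 0.61).

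ENO1 (YGR254W, chromosome VII, 1000927 to 1002240, plus strand), which encodes an enolase isoform, had 90.9, 86.7 and 67.5 scaled labelled reads with DMSO and 125, 183 and 193 with IAA. It rose by 1.04 ± 0.20 in new RNA (adjusted p = 8.24e-07) and by 0.61 ± 0.14 in total RNA. TDH2 (YJR009C, chromosome X, 453683 to 454681, minus strand), 1 of the glyceraldehyde-3-phosphate dehydrogenase genes, had 317, 353 and 300 with DMSO and 475, 578 and 590 with IAA, without overlap, and rose by 0.77 ± 0.15 (adjusted p = 6.27e-07). TDH2 has the paralogs TDH1 and TDH3, and reads that map equally well to them could be split by the counting. HXT7, a high-affinity hexose transporter with a close copy in HXT6, had 36.2, 44.8 and 51.2 with DMSO and 57.2, 81.3 and 54.7 with IAA. Its change of 0.55 ± 0.27 (adjusted p = 0.0465) did not pass without DMSO A (0.42), DMSO B (0.56) or IAA B (0.34), nor with the replicate letter as a block.

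Glycolysis and fermentation escaped as a group. Over all genes 0.385% rose, 83.9% fell and 7.45% escaped in new RNA, and relative scaling called 16.2% higher. Of 18 tested members 5 rose, 2 fell and 11 did not pass, and all 18 were in the escaping class. The median change was 0.03 in new and 0.13 in total RNA, against −1.97 and −1.24 over all genes. The list's median level was 1618 CPM in the RDY73 controls, and of the 520 tested genes with the highest level 29.8% escaped. The 5 that rose were TDH1 (1.74), ENO1, GLK1 (0.83, in a window that overlaps a neighbour's), TDH2 and FBA1 (0.27). TDH1 had a labelled share of 1.95% in RDY73_DMSO and 1.63% in the unlabelled controls, so most of its DMSO labelled reads were at the background level, and its change was 3.01 with the background subtracted. Of these 5 genes GLK1 did not pass without IAA C (0.41) and FBA1 did not pass without DMSO A, DMSO C, IAA B or IAA C (0.16 to 0.24). The 2 that fell were HXK2, the main glucose-phosphorylating hexokinase (−0.39), and PFK2, a phosphofructokinase subunit (−0.42), and both rose under relative scaling, where all 18 members were called higher. HXK2 did not pass without DMSO A, DMSO C or IAA A (−0.39 to −0.30), and PFK2 did not pass without DMSO B (−0.28) or IAA C (−0.22). The summed labelled reads of the 18 genes per S. pombe read were 0.672, 0.779 and 0.598 with DMSO and 0.612, 0.756 and 0.766 with IAA, and the groups overlapped. TDH3, with 1695, 1987 and 1404 scaled labelled reads against 1393, 1658 and 1689, changed by −0.10 ± 0.13. PGK1, phosphoglycerate kinase, changed by 0.13 ± 0.13 (adjusted p = 0.332). Background made up 8.47% to 10.1% of the labelled reads of this list with DMSO and 9.52% to 11.2% with IAA.

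Targets of the stress factors Msn2 and Msn4 lay in the same range. Of 19 tested genes 3 rose (HSP12, 1.38; DDR2, 1.23; and GLK1, shared with glycolysis), 2 fell (GRE3 and RTN2) and 14 did not pass, with 14 in the escaping class and medians of 0.06 in new and 0.20 in total RNA. Relative scaling called 15 of them higher and none lower. Labelled background is larger here, 13.3% to 16.1% of the list's labelled reads with DMSO and 12.8% to 15.6% with IAA, and HSP12, a membrane heat-shock protein gene, had a labelled share of only 0.478% in RDY234_DMSO. Of 26 genes of the chaperone regulator Hsf1, 21 fell, none rose and 11 escaped, around a median of −0.69, and relative scaling called 21 of the 26 higher and none lower. Over all genes 83.9% fell and 7.45% escaped, around a median of −1.97, and relative scaling called 16.2% higher. Of 16 listed hexose transporter genes only 5 had enough labelled reads to be tested for new RNA. Of these 5, 1 rose (HXT7), 1 fell and 3 did not pass, with 4 in the escaping class, around a median of −0.33. Relative scaling called 4 of the 5 higher and none lower.

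Histone genes and genes of the G1/S transition fell less in new RNA than the median gene (−1.97). Over all genes 83.9% fell and 7.45% escaped, and relative scaling called 11.6% lower and 16.2% higher. Of 10 histone genes 7 fell, none rose and 7 escaped, with medians of −0.47 in new and −0.10 in total RNA, and relative scaling called 9 higher. HHF2, a histone H4 gene that encodes the same protein as HHF1, went from 768, 879 and 746 scaled labelled reads to 513, 600 and 664. The groups did not overlap, and the change was −0.43 ± 0.14 (adjusted p = 0.00244) in new RNA and −0.05 in total RNA, both reversed under relative scaling (1.28 and 1.11). Of 22 G1/S genes 17 fell and 7 escaped (median −1.12), and relative scaling called 1 lower and 10 higher. Of 46 amino acid synthesis genes 32 fell, 2 rose and 11 escaped (median −0.95), and relative scaling called 1 lower and 20 higher. The 2 that rose were ARG3, ornithine carbamoyltransferase, from 5.45 ± 2.18 to 16.6 ± 4.01 scaled labelled reads (SD, n = 3; edgeR adjusted p = 0.00947), at 1.54 ± 0.57 in new and 1.06 ± 0.24 in total RNA, and SER3, a serine synthesis enzyme whose window overlaps a neighbour's, at 1.03 ± 0.22 in new RNA.

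The 4 deepest falls among well-covered genes were in genes of ribosome assembly. RRP15 (YPR143W, chromosome XVI, 818323 to 819075, plus strand), needed for maturation of the large ribosomal subunit, had 99.2, 97.2 and 105 scaled labelled reads with DMSO and 13.0, 12.3 and 13.7 with IAA. The groups were far apart, with a log2 change of −2.94 ± 0.25 (adjusted p = 2.38e-28), a 7.69-fold fall, and total RNA fell by 2.10 ± 0.14. UTP8 (YGR128C), a subunit of the small-subunit processome, went from 118, 155 and 130 to 19.1, 19.7 and 17.1, a change of −2.83 ± 0.24. RBP95 (−2.85 ± 0.22) and ECM16 (−2.82 ± 0.25), a helicase of the same processome, fell as far. Not all of the 10 deepest belong to ribosome assembly. TOM7 (YNL070W, chromosome XIV, 493366 to 493548, plus strand), a small subunit of the mitochondrial outer membrane import pore, went from 137, 160 and 122 to 22.1, 26.3 and 17.1, by −2.66 ± 0.23. PRE5 (YMR314W, chromosome XIII, 901709 to 902413, plus strand), a core proteasome subunit, went from 98.2, 127 and 70.6 to 16.0, 15.6 and 16.2, by −2.60 ± 0.26. SAC3, a scaffold of messenger export at the nuclear pore, went from 110, 118 and 98.2 to 23.1, 21.3 and 6.83, by −2.67 ± 0.24, with IAA C the lowest. All of these also fell under relative scaling.

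In total RNA the 3 deepest falls among genes with a mean of at least 100 total reads and no overlapping or multimapped window were also in ribosome assembly genes. FYV7, involved in small-subunit RNA processing, went from 743, 909 and 857 scaled total reads with DMSO to 111, 142 and 131 with IAA, a change of −2.70 ± 0.16. NOP8 (−2.59 ± 0.16) and CGR1 (−2.57 ± 0.14), both of large-subunit assembly, were next. Their new RNA changed by −2.95 ± 0.28, −3.46 ± 0.30 and −2.72 ± 0.28, so for FYV7 and CGR1 the total fell nearly as far as the new RNA. Of 79 ribosome biogenesis genes all fell in new RNA, with a median of −2.12 in new and −1.60 in total RNA, and relative scaling called 22 lower and 1 higher. Over all tested genes 83.9% fell in new RNA, with medians of −1.97 in new and −1.24 in total RNA. For new RNA, relative scaling called 11.6% of all genes lower and 16.2% higher.

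**Figure D2:**
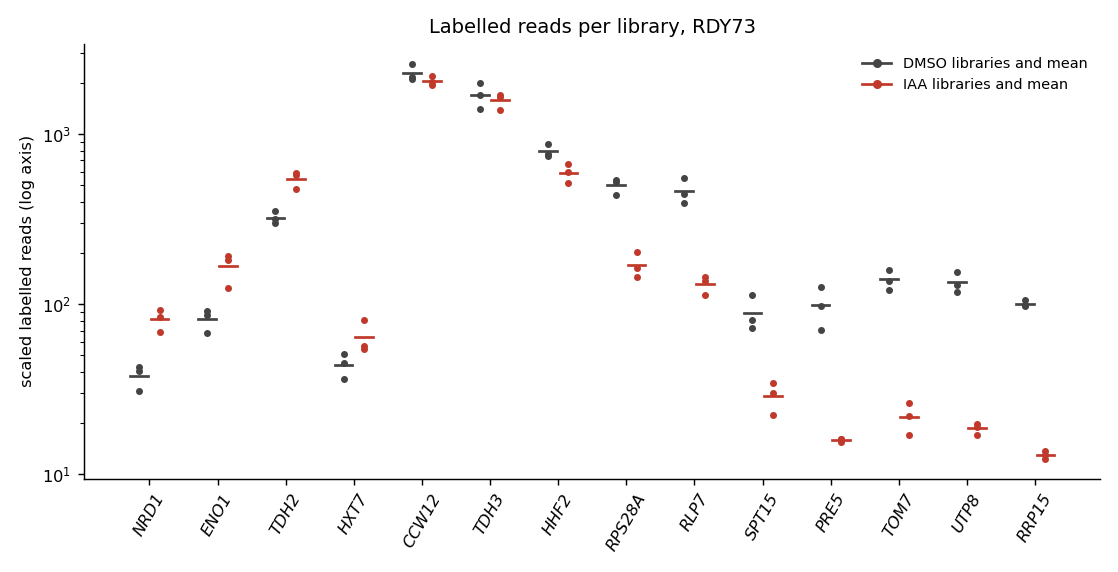
Scaled labelled reads of 14 genes in each of the 3 DMSO and 3 IAA libraries of RDY73, on a log axis, with a line at each group mean. NRD1, ENO1 and TDH2 lie higher with IAA without overlap, CCW12 and TDH3 overlap between the groups, and RRP15, UTP8, TOM7 and PRE5 lie lower by more than 6-fold.

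Ribosomal protein genes fell in new RNA and had a smaller median change in total RNA. Of 138 tested genes 137 fell in new RNA, around a median of −1.24, and 65 fell in total RNA, around a median of −0.25. Relative scaling turned their direction, with 101 called higher and none lower in new RNA and 135 higher and 1 lower in total RNA. Over all genes 83.9% fell in new and 77.9% in total RNA, and relative scaling called 16.2% and 29.6% higher. The ratio of labelled to unlabelled reads fell in 130 of the 138, around a median of −0.98. Over all genes it fell in 26.4%, around a median of −0.78. Of the 138 genes 135 are among the 520 with the highest level. There the median SE of the new RNA change was 0.190, against 0.479 over all genes. Their summed labelled reads per S. pombe read were 3.43, 3.94 and 3.14 with DMSO and 1.38, 1.60 and 1.68 with IAA, while their summed total reads were 4.55, 4.36 and 3.67 against 3.51, 3.89 and 3.64. The new RNA did not overlap between the groups and the total RNA did. Background rose from 6.88% to 8.41% of their labelled reads with DMSO to 13.3% to 15.6% with IAA.

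Among the well-covered genes, the largest falls in labelled against unlabelled reads included ribosomal protein genes. RPL33A, a large-subunit protein gene with the paralog RPL33B, had 280, 570 and 235 scaled labelled reads with DMSO and 75.2, 116 and 119 with IAA. DMSO B was more than 2-fold above the other DMSO libraries, and without it the new RNA change moved from −1.78 ± 0.16 to −1.31 and the ratio change from −1.62 ± 0.17 to −1.19. Total RPL33A RNA changed by −0.11 ± 0.13 (adjusted p = 0.442). RPS28A, a small-subunit protein gene with the paralog RPS28B, went from 523, 535 and 441 to 145, 164 and 202 scaled labelled reads, a new RNA change of −1.54 ± 0.15, while its total RNA changed by −0.14 ± 0.14 and its ratio by −1.43 ± 0.13 (adjusted p = 8.81e-17). EGD1, a subunit of the nascent polypeptide-associated complex on ribosomes, went from 140, 129 and 128 to 23.1, 38.6 and 32.5, with −2.05 ± 0.21 in new and −0.62 ± 0.12 in total RNA. Relative scaling moved the new RNA change of RPS28A to 0.16, and that of RPL33A, EGD1 and RLP7 to −0.037, −0.36 and −0.091, none of which passed. RLP7, a ribosome assembly factor, fell nearly alike in both, by −1.81 ± 0.15 in new and −1.47 ± 0.17 in total RNA. Its ratio change of −0.38 ± 0.14 (adjusted p = 0.0340) did not pass without DMSO B (−0.33), DMSO C (−0.38), IAA A (−0.41) or IAA B (−0.34).

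The change depended on expression level. The tested genes were cut into 10 groups of equal size by their mean CPM in the RDY73 controls, from a median of 7.55 CPM in the lowest decile to 543 in the highest, which spanned 209 to 35388. The median new RNA change was −2.32, −2.39, −2.33, −2.15, −2.21, −2.0, −1.95, −1.88, −1.58 and −1.10 from the lowest to the highest decile. The median total RNA change was −1.51, −1.60, −1.54, −1.48, −1.47, −1.37, −1.28, −1.21, −0.88 and −0.27. Both were nearly level over the lower 5 deciles and shrank over the upper 5, most of all in the top decile, where 29.8% of genes escaped and 2.88% fell deeply, against 2.50% and 14.0% in the lowest. The error also changed, with a median SE of 0.886 in the lowest and 0.190 in the highest decile. Across genes the Spearman correlation of level was 0.34 with the new RNA change and 0.43 with the total RNA change, over 5195 genes of the same libraries.

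In summed labelled reads the fall was largest in decile 2 (4.38-fold) and smallest in the highest decile. The lowest decile went from 0.271, 0.294 and 0.262 labelled reads per labelled S. pombe read with DMSO to 0.0675, 0.0773 and 0.0848 with IAA, 3.60-fold lower. The highest decile went from 9.29, 10.9 and 8.86 to 5.16, 6.01 and 6.09, 1.68-fold lower, and neither decile's groups overlapped (exact p = 0.1). Total reads of the highest decile went from 8.35, 8.42 and 7.10 to 6.74, 7.62 and 6.99, 1.12-fold lower, with overlap (exact p = 0.2). The 135 ribosomal protein genes of that decile changed by a median of −1.23 in new and −0.25 in total RNA, and its other 385 genes by −0.90 and −0.30, so the smaller change at high level was not limited to ribosomal proteins. In new RNA 81.5% of the genes of the highest decile fell and 29.8% escaped, against 83.9% and 7.45% of all tested genes. Of the 20 genes with the most labelled reads in RDY234_DMSO, 16 fell, none rose and 12 escaped. Together these 20 went from 11.7% to 17.9% of labelled reads. CCW12, a cell wall mannoprotein gene among them, had 2121, 2589 and 2170 scaled labelled reads with DMSO and 2022, 1949 and 2184 with IAA, a change of −0.16 ± 0.12 (adjusted p = 0.218), which became 1.56 under relative scaling.

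**Figure D3:**
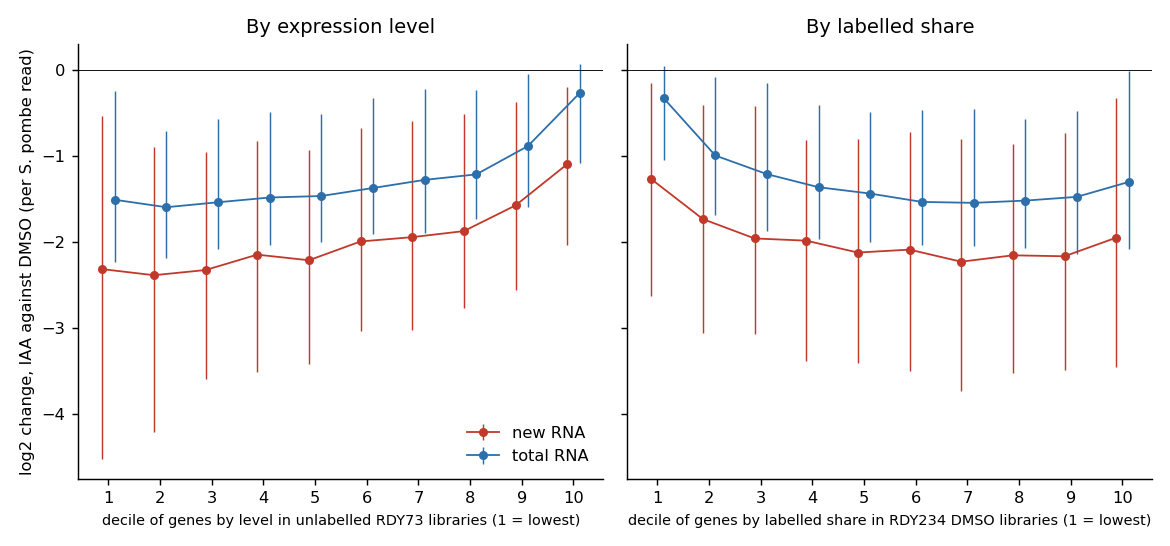
Median log2 change of new and total RNA in deciles of expression level (mean CPM of the RDY73 controls) and of labelled share (RDY234_DMSO libraries), with bars from the 10th to the 90th percentile of genes. By level the change shrinks towards the top decile, and by labelled share the total RNA change deepens from −0.33 to about −1.5 before the last deciles.

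The dependence on labelled share was clearer in total than in new RNA. Labelled share, the part of a gene's reads that was labelled in the 4 min pulse, is larger where RNA turns over faster, and ran from a median of 4.41% in the lowest decile to 32.7% in the highest. The median total RNA change over its deciles was −0.33, −0.99, −1.21, −1.36, −1.44, −1.54, −1.55, −1.52, −1.48 and −1.30. In new RNA it was −1.27, −1.73, −1.96, −1.99, −2.12, −2.09, −2.23, −2.16, −2.17 and −1.95. The lowest decile stood apart in both. The gap between the highest and lowest deciles in new RNA, −0.68, turned to 0.39 when genes needed a mean of at least 50 labelled reads, so the direction of that trend depends on which genes are kept. The cause was not tested. The total RNA gap went from −0.98 to −0.22 under the same filter.

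Level and labelled share were themselves related, with a Spearman correlation of −0.62 across genes, so the genes were split by both. The filter on labelled reads included the RDY234_DMSO libraries, so a weakly expressed gene was kept more readily where its share was high. The lowest share was 8.09% in the lowest level decile and 0.250% in the highest. How far the filter shapes this correlation and the share groups was not tested. Among the upper part of genes by level, cut in 3, the median total RNA change was −0.34 at low, −1.03 at middle and −1.21 at high labelled share, and the new RNA change was −1.26, −1.70 and −1.74. Among the lower part by level, the total RNA change was −1.56, −1.59 and −1.48 and the new RNA change −2.33, −2.41 and −2.22, with no trend by share. Level was not held fixed in the upper part, where its median was 307, 112 and 84.9 CPM at low, middle and high share, so level and share cannot be told apart there. These are medians without a test. The change in the ratio of labelled to unlabelled reads had a Spearman correlation of 0.01 with labelled share and 0.15 with level.

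Promoter sequence was then set beside the change. The 250 bases before each start codon or gene start were searched on the gene strand for the 8-letter TATA sequences TATAAAAA, TATAAAAG, TATAAATA, TATAAATG, TATATAAA, TATATAAG, TATATATA and TATATATG, where matches may overlap and the other strand was counted apart. Sequences are shown for the 3 largest rises and for 3 of the 10 deepest falls among the well-covered genes without overlap of libraries, 200 bases each from 250 to 51 bases before the start, 5′ to 3′ on the gene strand, from the RefSeq genome of build R64, with TATA matches in capitals. They lie at chrVII:1000677-1000876 (plus strand, ENO1), chrX:454732-454931 (minus strand, TDH2), chrXIV:174366-174565 (minus strand, NRD1), chrXVI:818073-818272 (plus strand, RRP15), chrXIII:901459-901658 (plus strand, PRE5) and chrXIV:493116-493315 (plus strand, TOM7).
ENO1: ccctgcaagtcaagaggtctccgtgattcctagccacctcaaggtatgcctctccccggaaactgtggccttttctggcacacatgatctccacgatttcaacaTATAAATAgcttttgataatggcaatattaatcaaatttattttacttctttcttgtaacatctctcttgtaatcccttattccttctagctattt
TDH2: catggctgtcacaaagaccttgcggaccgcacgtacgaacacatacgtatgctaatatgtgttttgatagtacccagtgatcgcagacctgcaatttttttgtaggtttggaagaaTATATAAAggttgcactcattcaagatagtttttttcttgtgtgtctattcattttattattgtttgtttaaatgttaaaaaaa
NRD1: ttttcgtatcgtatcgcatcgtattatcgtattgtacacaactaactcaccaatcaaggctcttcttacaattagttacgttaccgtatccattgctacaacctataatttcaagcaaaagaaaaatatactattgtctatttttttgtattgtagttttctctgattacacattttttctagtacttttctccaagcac
RRP15: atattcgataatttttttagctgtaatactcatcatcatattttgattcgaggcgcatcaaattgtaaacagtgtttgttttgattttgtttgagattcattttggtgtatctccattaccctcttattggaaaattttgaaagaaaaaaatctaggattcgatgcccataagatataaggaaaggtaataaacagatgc
PRE5: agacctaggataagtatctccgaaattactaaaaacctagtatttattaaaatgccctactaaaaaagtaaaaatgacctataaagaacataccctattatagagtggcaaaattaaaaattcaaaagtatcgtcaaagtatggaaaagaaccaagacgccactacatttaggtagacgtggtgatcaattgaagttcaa
TOM7: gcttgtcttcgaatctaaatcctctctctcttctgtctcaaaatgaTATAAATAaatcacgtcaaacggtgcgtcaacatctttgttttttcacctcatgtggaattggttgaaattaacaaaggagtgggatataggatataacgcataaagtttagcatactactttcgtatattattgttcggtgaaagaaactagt
ENO1 has its match 146 bases and TDH2 134 bases before the start. RRP15 and PRE5, which fell deeply, have none of these letters in the window, but neither does NRD1, which rose, and TOM7, which fell deeply, has a match 204 bases before its start. A match is a description of letters and not a site of binding.

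Over all genes, those with a match fell less. Of 6461 promoters 1737 held a match (26.9%) on the gene strand and 23.4% on the other strand, and of the 5195 tested genes 1296 had 1 (24.9%). The median new RNA change was −1.54 with a match and −2.07 without, and the total RNA change −0.95 and −1.39. A fall was called in 71.3% of the 1296 genes and in 88.1% of the other 3899, and 15 of the 1296 rose against 5 of the 3899. Escaping genes had a match in 56.3% (218 of 387), deeply fallen genes in 16.4% (102 of 621) and all other genes in 23.3%. The 507 genes with a match on the other strand alone had a median of −2.01, close to that without a match. Promoters with a match held 66.0% A and T and the others 64.8%, and within the lowest, middle and highest group by this content the medians with and without a match were −1.29 and −2.04, −1.59 and −2.14, and −1.72 and −2.02.

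The difference was widest at high expression. In the top level decile the 165 genes with a match changed by a median of −0.48 in new RNA, with 60.6% escaping, and the 355 without changed by −1.26, with 15.5% escaping. From the lowest to the highest decile the medians with a match were −2.12, −2.09, −2.31, −1.71, −1.89, −1.81, −1.64, −1.51, −0.91 and −0.48. Without a match they were −2.35, −2.58, −2.34, −2.26, −2.26, −2.07, −2.0, −2.01, −1.74 and −1.26. The genes with a match thus had the smaller median fall in each decile, by least in decile 3 and by most in deciles 9 and 10. Summed over the top decile, genes with a match went from 3.66, 4.30 and 3.54 labelled reads per labelled S. pombe read to 2.56, 2.97 and 3.08, 1.34-fold lower, and genes without from 5.63, 6.56 and 5.32 to 2.60, 3.04 and 3.01, 2.02-fold lower. Both sets lay lower with IAA in every library. Total reads of the same genes were 1.01-fold lower with a match (exact p = 0.9) and 1.18-fold lower without. Among ribosomal protein genes the medians were close, −1.11 in the 15 with a match and −1.26 in the 123 without.

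**Figure D4:**
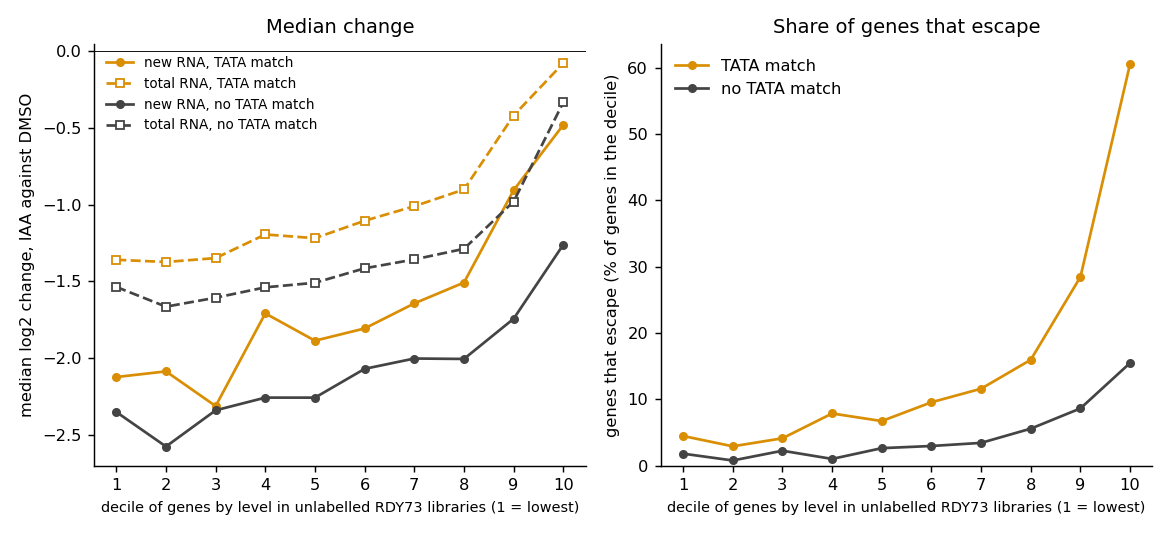
Left, median log2 change of new RNA (filled) and total RNA (open) in deciles of expression level, for genes with and without a TATA match in the 250 bases before the start; right, the percentage of genes in each decile that escape. The new RNA medians with a match lie above those without in each decile, by least in decile 3, and the gap is widest in the top deciles, with −0.48 and −1.26 in the highest.

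Beside the 24.9% of all tested genes, the same letters were found in 14 of 18 glycolysis genes, 16 of 19 Msn2/4 genes, 5 of 5 hexose transporters, 8 of 10 histone genes, 14 of 26 Hsf1 genes, 15 of 46 amino acid synthesis genes and 5 of 22 G1/S genes. Among the complexes that act at promoters they were found in 2 of 15 TFIID, 1 of 14 SAGA, 2 of 19 SWR1 and NuA4, 4 of 23 Mediator and 7 of 27 RNA polymerase II and general factor genes.

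Genes of the transcription machinery fell in new RNA throughout. All 15 TFIID genes fell (median −2.37 in new and −1.60 in total RNA), and so did all 14 of SAGA (−2.50 and −1.62), all 19 of SWR1 and the NuA4 acetyltransferase (−2.44 and −1.61), all 23 of Mediator (−2.42 and −1.40), all 27 of RNA polymerase II and its general factors (−2.16 and −1.45) and all 18 elongation factors (−1.98 and −1.32). Beside a background of 83.9% of genes fallen and medians of −1.97 and −1.24, these lists lie at or somewhat below the typical gene. Under relative scaling 1, 2, 5, 3, 5 and 5 of their members were called lower and 0, 0, 0, 0, 1 and 1 higher. SPT15, the TATA-binding protein gene, had 80.6, 114 and 72.6 scaled labelled reads with DMSO and 30.1, 34.5 and 22.2 with IAA, a change of −1.59 ± 0.24 in new and −0.82 in total RNA, which became 0.12 and 0.34 under relative scaling. TAF11, a TFIID subunit, changed by −1.87 ± 0.19. RPO21, the largest subunit of RNA polymerase II, changed by −1.21 ± 0.22 and by 0.50 under relative scaling.

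Of 20 genes of 3′ end formation and termination 18 fell and 2 rose, NRD1 and HRP1, around a median of −1.70, and relative scaling called 3 lower and 2 higher. Of 31 genes of messenger decay, whose products remove the cap, the poly(A) tail or the body of RNA, 30 fell (median −2.16 in new and −1.47 in total RNA) and DHH1, a decapping activator, did not pass (−1.71 ± 0.92, but −2.20 without DMSO A and −2.01 without DMSO B, where it passed, and −0.044 without DMSO C), with relative scaling calling 6 lower and none higher. All 67 mitochondrial ribosomal protein genes fell (−2.39 and −1.67), and relative scaling called 19 lower and 1 higher. All 33 proteasome genes fell (−1.84 and −1.36), and relative scaling called 2 in each direction. Of 62 genes within 20 kb of a chromosome end 39 fell, around a median of −1.70 in new and −0.84 in total RNA, and relative scaling called 1 lower and 15 higher. Beside these lists, 83.9% of all tested genes fell in new RNA, around medians of −1.97 in new and −1.24 in total RNA. For new RNA, relative scaling called 11.6% of all genes lower and 16.2% higher.

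**Figure D5:**
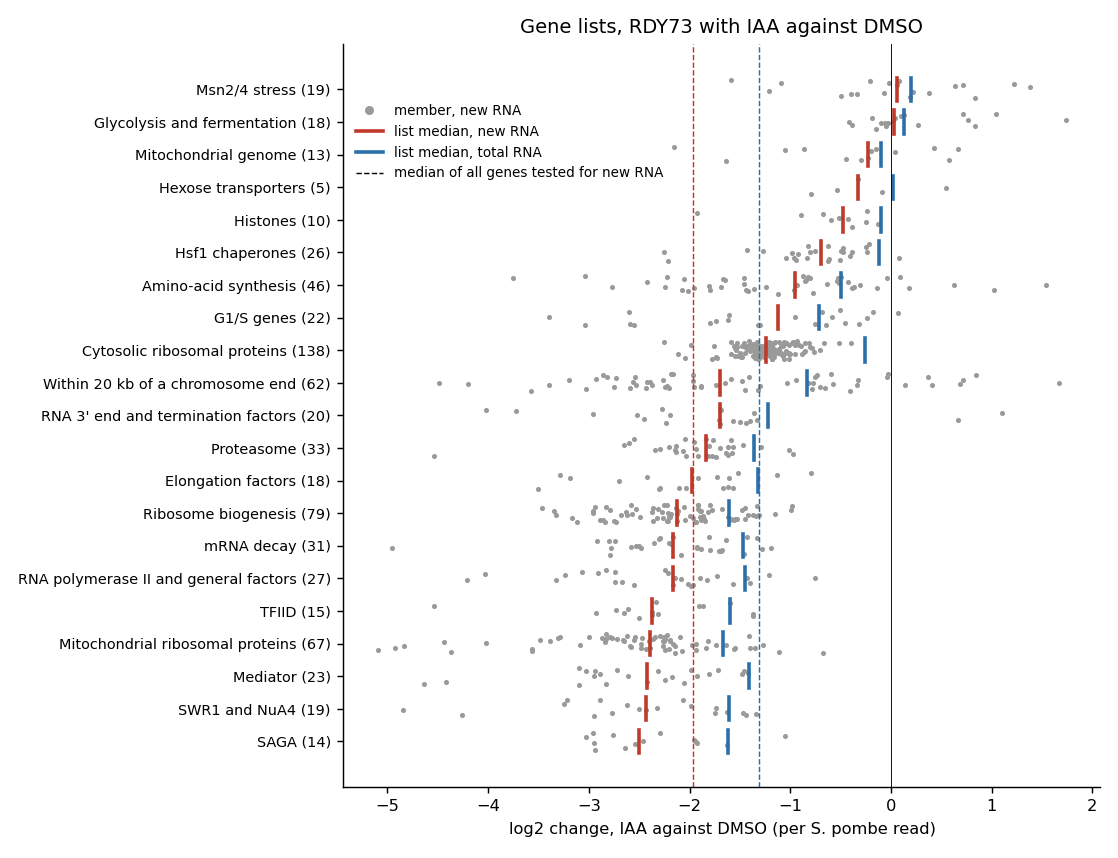
Log2 change per S. pombe read for each gene list, with grey points for the new RNA of its genes, red and blue bars at the list's median in new and total RNA, and dashed lines at the medians of all genes tested for new RNA (−1.97 and −1.31). Glycolysis and the Msn2/4 targets centre near 0, ribosomal proteins lie between, and the medians of the transcription complexes lie at or below the lines for all genes.

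Windows of the mitochondrial genome and of noncoding RNAs had smaller median changes than all genes, of which 83.9% fell in new RNA around −1.97. Of 13 tested windows of the mitochondrial genome, which has its own RNA polymerase, 2 fell, around a median of −0.23 in new RNA, and of 46 tested for total RNA 2 fell, around −0.10. Background was 39.5% to 42.1% of their labelled reads with DMSO and 43.2% to 45.2% with IAA, and relative scaling called 8 of the 13 higher and none lower. Total mitochondrial reads per S. pombe read were 0.167 ± 0.0166 with DMSO and 0.151 ± 0.0271 with IAA (SD, n = 3), with overlap (exact p = 0.5). Of 51 snoRNA windows 17 fell and 2 rose (median −0.55), and of 67 tRNA windows 30 fell and none rose (−0.69), with 29 and 22 called higher and 0 and 3 lower under relative scaling. The libraries count polyadenylated 3′ ends and each window reaches 250 bp past its gene, so these windows can hold reads of neighbouring messengers. For the same reason 74 of the 387 escaping and 137 of the 621 deeply fallen genes, whose windows overlap another on the same strand, are uncertain. Such windows belong to 1001 of all 5195 tested genes. Of the whole classes, 59 of the escaping and 7 of the deeply fallen genes are not nuclear protein-coding genes, against 170 of the 5195.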

How the data were processed

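Newly made and total RNA were measured with 3′ mRNA-seq SLAM-seq in 18 yeast libraries, 3 in each of 6 groups of strain and treatment taken from the labels. Per the design text, reads were paired-end, 150 bp long, and passed through fastp, bbduk and SLAM-DUNK, and per the submitters' processing notes the fastp version was 0.23.2 and the genome builds were R64 and ASM294v2. Slamdunk was version 0.4.3, per the file headers. Read counts were deposited by the authors in 72 tables, 4 per library, with all reads and reads at or above 1 or 2 T-to-C conversions per gene window, of which 6465 are S. cerevisiae and 6974 S. pombe windows. The columns of conversion rates and coverage were not used. A window runs from the gene start to 250 bp past its end in 6459 of 6465 cases, and 1316 windows overlap another on the same strand. The sources used here do not give the kit, the strand setting, unique molecular identifiers or masking of strain variants, so counting error is a lower limit of the error and antisense neighbours are uncertain.

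New RNA (at least 2 conversions) was tested over the 12 libraries given 4tU, total RNA over all 18, and labelled against unlabelled reads within the 12 libraries with the library as a block, each with 1 mean per group and edgeR 4.0.16 (R 4.3.3, limma 3.58.1), using the quasi-likelihood F test, library sizes set to each library's sum of S. pombe reads (labelled or total) and Benjamini-Hochberg adjustment at 0.05. Genes needed at least 10 reads in at least 3 libraries. The SE is the size of the log2 change over the square root of F. Scaled reads were counts put on the mean S. pombe total of the libraries. Summed ratios were compared by exact permutation tests, two-sided. DESeq2 1.42.0, other scalings and filters, 1 conversion, background subtraction and each library left out were alternatives. The fits were tested on simulated data. Promoters were read from the RefSeq R64 genome by gene position, with 6461 of 6465 windows matched by name and position. Other steps used Python 3.11.15, numpy 2.4.6, scipy 1.17.1, pandas 2.3.3 and matplotlib 3.10.9.

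Named genes had a mean of at least 50 labelled reads, no overlapping window and at most 10% multimapped reads, and were taken from the 10 largest rises and 10 deepest falls in new RNA without overlap of libraries, the 5 largest and 5 smallest ratio changes, the 5 largest rises and 5 deepest falls in total RNA (here with a mean of at least 100 total reads in place of the labelled minimum), the 20 most labelled genes, the 2 most labelled genes of each list, and the engineered loci. Genes named because a count was 5 or fewer were chosen after their values were seen. The members and lists were chosen with earlier results of these data known. Replicate letters were not used to pair libraries, since the correlation of same-lettered deviations was 0.0116 to 0.0672 in new and 0.0175 to 0.0713 in total RNA, under the 0.1 required. Whether the letters mark pairs is not known from the labels. All p-values measure the spread between biological triplicates.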

Additional observations from a re-analysis of the deposited data

How the results depend on the processing

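The directions of most genes rest on the S. pombe scale, since relative scaling takes a shared shift out by construction. Relative scaling and DESeq2 with its own size factors gave 601 and 465 genes lower and 842 and 844 higher in new RNA, and 1880 and 1483 lower and 1803 and 1964 higher in total RNA. Relative scaling gave 112 lower and 64 higher labelled ratios, 2163 escaping and 50 deeply fallen genes. With the filter and the spread from the 6 compared libraries alone, which left 3224 genes to test for new RNA, 2724 genes were lower in new RNA, 6 had a higher ratio and 293 fell deeply. A threshold of 1 conversion gave 34 genes higher in new RNA, 824 escaping genes, a summed labelled change of −0.69 and a gap by labelled share of −1.06. These values carry the larger background of that threshold. Without the 50 genes with most reads the summed total change was −0.46, and without a filter 598 genes escaped. With at least 50 labelled reads the gap between top and bottom decile by level was 0.62 in new and 1.05 in total RNA, and by share 0.39, a reversal, in new and −0.22 in total RNA. The TATA difference was then 0.86 in new and 0.65 in total RNA. It was 0.64 and 0.54 without overlapping or multimapped windows, 0.36 and 0.28 with matches on either strand, and 0.39 in total RNA over nuclear protein-coding genes. Shares from RDY73_DMSO gave a gap of −0.90 in new RNA, and levels from RDY234 controls gave 1.17 in total RNA. The cause of each of these shifts was not tested.

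Without 1 library, genes in new RNA numbered 4075 to 4283 lower and 13 to 26 higher, in total RNA 4525 to 4788 and 48 to 83, labelled ratios 896 to 1323 and 4 to 9, escaping genes 312 to 418 and deeply fallen genes 507 to 728. With the replicate letter as a block there were 4330 genes lower and 16 higher in new RNA, 4741 and 70 in total RNA, 1338 and 10 in the ratio, 367 escaping and 600 deeply fallen. The block ended the calls of HXT7, BDF2 and FBA1 and no other call among the named genes. Every library correlated best with its own letter, a hint from the data and not from the design.

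Among 67 results on named genes, 1013 alternatives gave 907 with the same direction and call, 57 that no longer passed, 7 that newly passed and 42 in the other direction. Those 42 came from relative scaling and DESeq2 with its own size factors, apart from BDF2 in new RNA at 1 conversion (0.094). In that order the 2 scalings gave, in new RNA, BDF1 1.05 and 1.06, BDF2 1.34 and 1.35, RPO21 0.50 and 0.51, SPT15 0.12 and 0.13, HXK2 1.31 and 1.32, PFK2 1.30 and 1.32, TDH3 1.62 and 1.63, CCW12 1.56 and 1.57, HHF2 1.28 and 1.30, RPS28A 0.16 and 0.17, and NAB3 0.016 and 0.034. In total RNA they gave BDF1 1.07 and 1.16, BDF2 0.95 and 1.04, SPT15 0.34 and 0.43, CCW12 1.15 and 1.24, HHF2 1.11 and 1.20, RPS28A 1.02 and 1.10, EGD1 0.54 and 0.63, RPL33A 1.05 and 1.13, and NAB3 0.21 and 0.30. Relative scaling gave 0.24 for the RLP7 ratio. Depth limits mainly the weakly expressed genes, where the median SE of the new RNA change was 0.886.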
